A study of Mus musculus with 8 samples.

Results

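The mitochondrial genome of the mouse encodes 13 proteins, all of them subunits of the machinery of oxidative phosphorylation, and the counts table held a row for each of these 13 genes among 31815 gene rows. The genes were taken as the rows whose symbol starts with mt-. GENCODE M21 annotates 37 genes on the mitochondrial chromosome of the GRCm38 build, and its 2 ribosomal RNA and 22 transfer RNA genes were not analysed here. All 13 genes passed the filter on low counts, with 507 to 74457 counts per gene and library.

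RNA was sequenced from splenic CD8 T cells of OT-I mice (C57BL/6-Tg(TcraTcrb)1100Mjb/J), a strain whose transgenic T cell receptor recognises a peptide of ovalbumin. Naive cells were cultured with that peptide for 3 days, received a vector at 24 h and were sorted on day 5. The 4 groups, with 2 libraries each, were TOXFL-positive cells (the top 20% of GFP-positive cells in cultures given the TOXFL vector), TOXFL-negative cells (the GFP-negative cells of TOXFL cultures), TOXdeltaN-positive cells (the same gate in cultures given the TOXdeltaN vector) and TOXdeltaN-negative cells (the GFP-negative cells of TOXdeltaN cultures). TOX belongs to the HMG-box family of DNA-binding proteins of the nucleus, and GFP follows an internal ribosome entry site in both vectors. Positive and negative cells therefore differed in the TOX construct, the vector and the sort together, and cells with a vector for GFP alone were not analysed here. All groups share the transgenic receptor and the peptide culture. Whether the 2 libraries of a group stem from different mice or cultures is not stated in the labels, and the p-values therefore reflect the spread among these libraries alone, which may be technical.

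Library totals lay between 25059112 and 31240067 counts. Tox, the gene the vectors carry, stood at 104.8 and 126.3 CPM (counts scaled to the size of the library) in TOXFL-positive libraries, against 25.04 and 34.36 CPM in TOXFL-negative libraries. Tox stood at 107.1 and 82.87 CPM in TOXdeltaN-positive libraries, against 21.79 and 32.15 CPM in TOXdeltaN-negative libraries. The CD8 T cell markers Cd3e, Cd3g, Cd8a and Cd8b1 summed to 2531 to 2880 CPM in every library, and the fifth marker of the list was not analysed here. The markers of B cells, myeloid cells, NK cells, platelets and mitochondria-rich tissues (of which Adgre1, Ppbp and Alb were at 0 in all libraries) summed to at most 2.32 CPM per list in any library. The CD4 T cell list (Cd4, Cd40lg and Foxp3) summed to between 0.91 and 4.45 CPM.

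The respiratory chain moves electrons from NADH and succinate to oxygen and pumps protons across the inner mitochondrial membrane, and ATP synthase uses the gradient to make ATP. The mitochondrial genome supplies core subunits of complex I (mt-Nd1 to mt-Nd6 and mt-Nd4l), of complex III (mt-Cytb), of complex IV (mt-Co1 to mt-Co3) and of ATP synthase (mt-Atp6 and mt-Atp8), while the other subunits, and all of complex II, come from nuclear genes. Mammalian mitochondrial DNA is transcribed by a dedicated polymerase into long precursors that span many genes. Messenger, ribosomal and transfer RNAs are cut from these, and most of the messenger RNAs are tailed with poly(A). Activated T cells are known to enlarge their mitochondrial mass and their respiratory capacity.

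The annotation places 12 of the genes on the plus strand of chromosome M, and 1, mt-Nd6, on the minus strand. In genome order these are mt-Nd1 (ENSMUSG00000064341.1, chrM:2751-3707), mt-Nd2 (ENSMUSG00000064345.1, chrM:3914-4951), mt-Co1 (ENSMUSG00000064351.1, chrM:5328-6872) and mt-Co2 (ENSMUSG00000064354.1, chrM:7013-7696). They are followed by mt-Atp8 (ENSMUSG00000064356.3, chrM:7766-7969), mt-Atp6 (ENSMUSG00000064357.1, chrM:7927-8607), mt-Co3 (ENSMUSG00000064358.1, chrM:8607-9390), mt-Nd3 (ENSMUSG00000064360.1, chrM:9459-9806) and mt-Nd4l (ENSMUSG00000065947.3, chrM:9877-10173). The last are mt-Nd4 (ENSMUSG00000064363.1, chrM:10167-11544), mt-Nd5 (ENSMUSG00000064367.1, chrM:11742-13565), mt-Nd6 (ENSMUSG00000064368.1, chrM:13552-14070) and mt-Cytb (ENSMUSG00000064370.1, chrM:14145-15288). Mammalian mitochondrial genes have no introns. Neighbours overlap in places, and mammalian mitochondria are known to translate mt-Atp8 with mt-Atp6, and mt-Nd4l with mt-Nd4, from a shared messenger RNA. The ends and starts of these neighbours are shown since reads from the overlap fit both genes. Capitals mark the 43 bases shared by mt-Atp8 and mt-Atp6 and the 7 bases shared by mt-Nd4l and mt-Nd4, in the plus-strand sequence of GRCm38 from the GENCODE M21 transcripts.
mt-Atp8, last 73 bases, chrM:7897-7969: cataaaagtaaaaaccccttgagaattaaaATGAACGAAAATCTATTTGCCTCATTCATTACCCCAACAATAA
mt-Atp6, first 73 bases, chrM:7927-7999: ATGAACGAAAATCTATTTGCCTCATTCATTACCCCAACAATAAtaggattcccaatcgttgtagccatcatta
mt-Nd4l, last 67 bases, chrM:10107-10173: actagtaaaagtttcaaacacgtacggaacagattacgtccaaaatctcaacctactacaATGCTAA
mt-Nd4, first 67 bases, chrM:10167-10233: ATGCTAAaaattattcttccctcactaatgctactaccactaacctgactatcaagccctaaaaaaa

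The genes mt-Nd5 and mt-Nd6 overlap by 14 bases on opposite strands, and mt-Atp6 and mt-Co3 by 1 base. The library chemistry does not mark strand, so reads from the overlap of mt-Nd5 and mt-Nd6 cannot be assigned by strand, and reads antisense to any of the genes count with it. The ends of mt-Co1, mt-Co3 and mt-Cytb are shown because they differ in the stop codon. The annotated mt-Co1 ends in a complete stop codon, whereas mt-Co3, mt-Cytb and mt-Nd4, 3 of the 13 genes, end in a lone T, which the poly(A) tail is known to complete to a stop codon in mammals. Capitals mark these last letters on the plus strand.
mt-Co1, last 45 bases, chrM:6828-6872: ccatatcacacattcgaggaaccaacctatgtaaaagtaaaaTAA
mt-Co3, last 43 bases, chrM:9348-9390: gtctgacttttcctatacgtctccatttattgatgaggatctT
mt-Cytb, last 43 bases, chrM:15246-15288: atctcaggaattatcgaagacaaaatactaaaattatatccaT

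Nuclear pseudogenes copy much of this genome. Of the 13 genes, 11 matched 17 annotated nuclear pseudogenes at 90% identity or more over at least 75 bases, and mt-Nd1 and mt-Atp8 matched none. The copy of mt-Co3 in Gm28437 was identical over 783 bases, and that of mt-Co2 in Gm28661 over 681 bases. Other copies matched less closely, such as that of mt-Cytb in Gm11410 at 92.9% identity. Reads from identical stretches cannot be told from reads of the mitochondrial genes, and the pseudogenes themselves were not analysed here.

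The 13 genes together took 0.708% and 0.450% of the counts in the TOXFL-positive libraries, against 0.832% and 0.834% in the TOXFL-negative libraries. They took 0.764% and 0.798% in the TOXdeltaN-positive libraries, against 0.909% and 0.894% in the TOXdeltaN-negative libraries. The share was thus lower in every positive library than in either negative library of its own culture. The Wilson 95% intervals of these shares are narrow (0.448% to 0.453% for the lowest library and 0.906% to 0.913% for the highest) and cover counting error only. The group means were 0.579% ± 0.182 in TOXFL-positive and 0.833% ± 0.00147 in TOXFL-negative cells, and 0.781% ± 0.0238 in TOXdeltaN-positive and 0.902% ± 0.0105 in TOXdeltaN-negative cells (SD, n = 2 each). The differences of these means were −0.254 and −0.121 percentage points. Without TOXFL-positive replicate 1 the TOXFL difference was −0.383 points, and without TOXFL-positive replicate 2 it was −0.126 points. Each share is relative to all other RNA of a library, and in bulk samples fewer cells of a type and less RNA per cell cannot be told apart.

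Levels per length, in CPM per kilobase (RPKM), spanned a wide range, also among the 12 plus-strand genes, which derive from shared precursors. The median over the 8 libraries was highest for mt-Co3, at 2082 RPKM, followed by mt-Atp6 at 1563, mt-Co1 at 1440, mt-Co2 at 1034 and mt-Atp8 at 876 RPKM. The middle of the order held mt-Cytb at 638, mt-Nd1 at 468, mt-Nd5 at 278.5 and mt-Nd4 at 232 RPKM. The lowest medians were those of mt-Nd6 at 150.5, mt-Nd2 at 144, mt-Nd4l at 124 and mt-Nd3 at 95.9 RPKM. All neighbours in this order had overlapping ranges over the 8 libraries, but within a library the order hardly varied: each gene stood above the next in 6 to 8 libraries, and above it in all 8 for 9 of the 12 neighbouring pairs. The exceptions were mt-Co2 over mt-Atp8 and mt-Nd5 over mt-Nd4, each in 7 libraries, and mt-Nd6 over mt-Nd2, in 6. The genes of complex IV and ATP synthase filled the top 5 places, and 7 of the lower 8 belonged to complex I. Genes on a shared messenger RNA differed in this measure, with mt-Atp8 below mt-Atp6 and mt-Nd4l below mt-Nd4 in all libraries. The measure divides by the full annotated length, and mt-Atp8 (204 bases) and mt-Nd4l (297 bases) are short. The part of gene length and of reads in the overlaps was not tested, so a difference in RNA amount cannot be read from it. In human cells the messenger RNA of ND6 is known to lack the usual poly(A) tail, and the kit used here starts cDNA from poly(A).

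The complex I genes encode hydrophobic subunits of the membrane arm, which houses the proton channels. mt-Nd1, whose protein lies next to the quinone site, stood at 414.5 and 272.9 CPM in TOXFL-positive, 459.7 and 442.4 CPM in TOXFL-negative, 431.1 and 453.0 CPM in TOXdeltaN-positive and 493.7 and 497.1 CPM in TOXdeltaN-negative libraries. mt-Nd2, an antiporter-like subunit, stood at 139.4 and 83.8 CPM in TOXFL-positive, 142.7 and 155.7 CPM in TOXFL-negative, 143.0 and 204.5 CPM in TOXdeltaN-positive and 168.8 and 166.9 CPM in TOXdeltaN-negative libraries. For mt-Nd1 the positive libraries lay below the negative ones in both cultures, but for mt-Nd2 the TOXdeltaN groups overlapped because replicate 2 of the positive cells had the highest value of all. mt-Nd3, whose protein has a loop near the quinone site, stood at 30.5 and 15.9 CPM in TOXFL-positive, 34.0 and 32.1 CPM in TOXFL-negative, 33.4 and 33.3 CPM in TOXdeltaN-positive and 39.7 and 34.8 CPM in TOXdeltaN-negative libraries. mt-Nd4l, a small subunit near the quinone site, stood at 29.9 and 17.3 CPM in TOXFL-positive, 38.0 and 39.0 CPM in TOXFL-negative, 33.7 and 35.7 CPM in TOXdeltaN-positive and 40.9 and 38.6 CPM in TOXdeltaN-negative libraries. Both were lower in each positive library than in the negative libraries of its culture. mt-Nd4, an antiporter-like subunit, stood at 253.4 and 154.5 CPM in TOXFL-positive, 318.5 and 320.7 CPM in TOXFL-negative, 274.0 and 389.1 CPM in TOXdeltaN-positive and 337.5 and 328.2 CPM in TOXdeltaN-negative libraries. mt-Nd5, the third antiporter-like subunit, stood at 437.0 and 264.7 CPM in TOXFL-positive, 540.5 and 526.7 CPM in TOXFL-negative, 468.2 and 489.4 CPM in TOXdeltaN-positive and 562.9 and 543.5 CPM in TOXdeltaN-negative libraries. mt-Nd6, the only protein gene of the minus strand, stood at 72.4 and 43.8 CPM in TOXFL-positive, 77.4 and 80.1 CPM in TOXFL-negative, 74.0 and 121.1 CPM in TOXdeltaN-positive and 83.8 and 78.9 CPM in TOXdeltaN-negative libraries. The TOXdeltaN groups did not overlap for mt-Nd5, whereas for mt-Nd4 and mt-Nd6 the positive libraries lay on either side of the negative ones.

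mt-Cytb, the cytochrome b of complex III, stood at 652.1 and 428.2 CPM in TOXFL-positive, 758.3 and 762.9 CPM in TOXFL-negative, 701.6 and 585.1 CPM in TOXdeltaN-positive and 853.6 and 819.5 CPM in TOXdeltaN-negative libraries. All 4 positive libraries lay below all 4 negative ones. In complex IV, which passes electrons to oxygen, mt-Co1 encodes the subunit with the oxygen-binding centre. mt-Co1 had the most counts of the 13 genes, with 1807 and 1159 CPM in TOXFL-positive, 2239 and 2343 CPM in TOXFL-negative, 2067 and 2209 CPM in TOXdeltaN-positive and 2547 and 2465 CPM in TOXdeltaN-negative libraries. mt-Co2, whose protein takes electrons from cytochrome c, stood at 618.1 and 357.6 CPM in TOXFL-positive, 716.0 and 725.8 CPM in TOXFL-negative, 688.0 and 698.6 CPM in TOXdeltaN-positive and 826.0 and 778.6 CPM in TOXdeltaN-negative libraries. mt-Co3, the third core subunit, stood at 1447 and 828.3 CPM in TOXFL-positive, 1646 and 1650 CPM in TOXFL-negative, 1570 and 1619 CPM in TOXdeltaN-positive and 1767 and 1815 CPM in TOXdeltaN-negative libraries. For each of these 3 genes too, every positive library lay below every negative library. mt-Atp6, a subunit of the proton channel of ATP synthase, stood at 999.1 and 673.9 CPM in TOXFL-positive, 1144 and 1103 CPM in TOXFL-negative, 1026 and 1013 CPM in TOXdeltaN-positive and 1260 and 1205 CPM in TOXdeltaN-negative libraries. mt-Atp8, a small membrane subunit of the same enzyme, stood at 165.8 and 112.5 CPM in TOXFL-positive, 180.1 and 189.3 CPM in TOXFL-negative, 177.3 and 134.8 CPM in TOXdeltaN-positive and 208.3 and 197.9 CPM in TOXdeltaN-negative libraries. The positive and negative libraries did not overlap for either gene of ATP synthase.

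**Figure D1:**
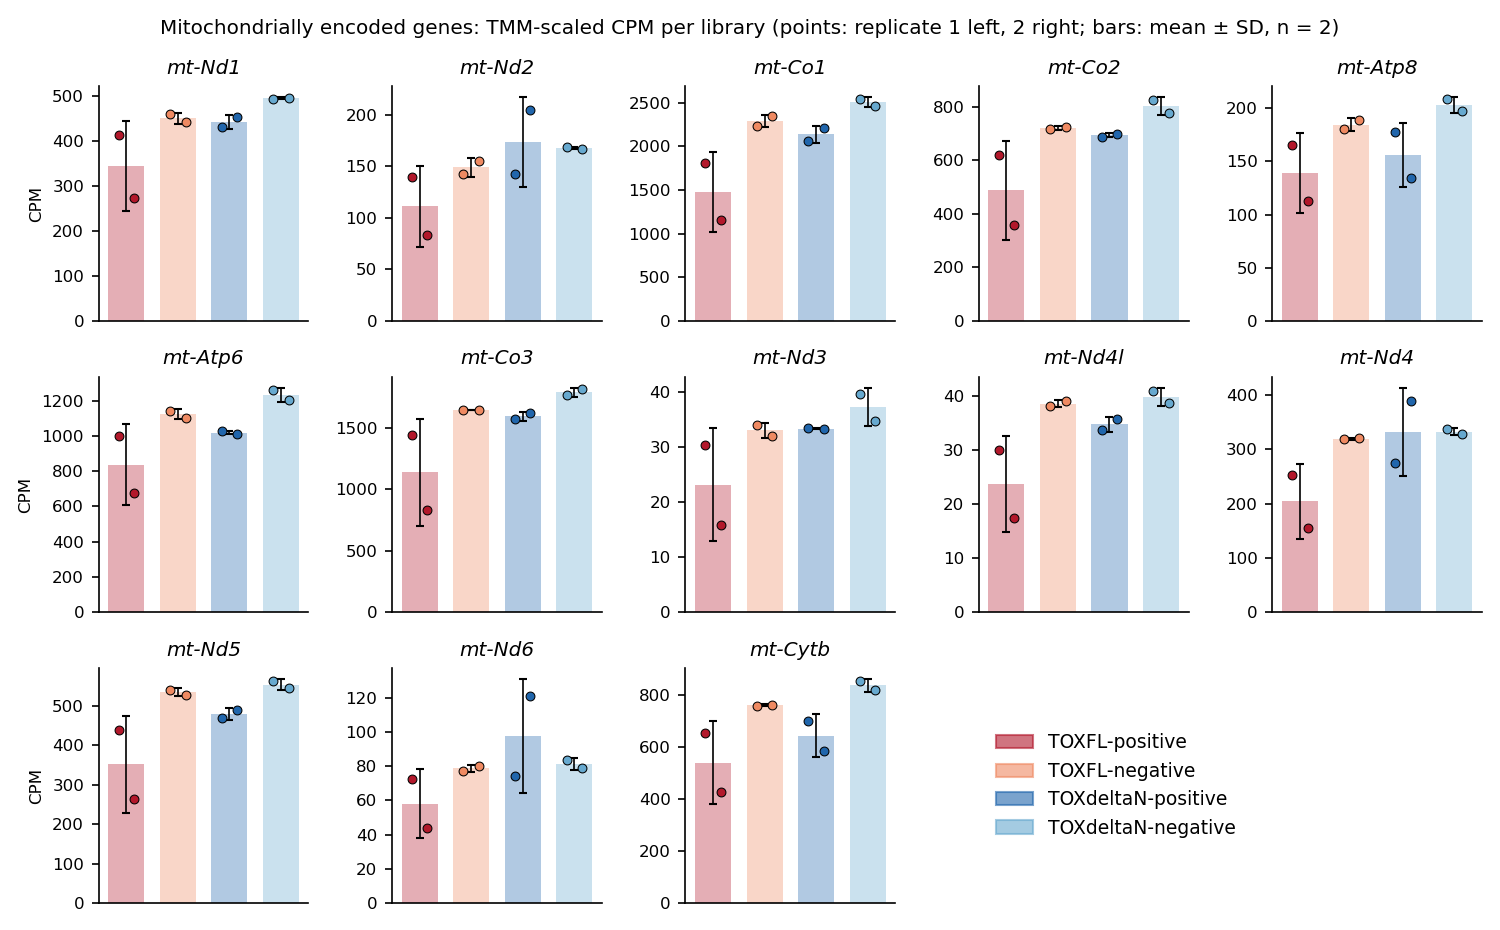
Scaled CPM of each mitochondrially encoded gene on the y axis, by group; points are libraries, with replicate 1 on the left, and bars are means ± SD (n = 2). TOXFL-positive replicate 2 is the lowest library for every gene, and TOXdeltaN-positive replicate 2 is the highest for mt-Nd2, mt-Nd4 and mt-Nd6.

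TOXFL-positive cells had lower values than TOXFL-negative cells for all 13 genes, but none passed the main test. The log2 fold changes lay between −0.71 and −0.39 with a median of −0.51, where the median of all tested genes was −0.003. The largest was that of mt-Nd4l (log2 −0.71, SE 0.204, edgeR adjusted p = 0.193), and the smallest adjusted p was that of mt-Co1 (log2 −0.63, SE 0.166, edgeR adjusted p = 0.170). mt-Nd4 stood at log2 −0.65 (SE 0.217) and mt-Nd5 at −0.61 (SE 0.184), and mt-Nd1 had the smallest difference, −0.39 (SE 0.16). The edgeR quasi-likelihood test with Benjamini-Hochberg adjustment over 13329 genes called 0 of the 13 genes, where it called 0.045% of all genes in either direction. At an unadjusted p under 0.05, 10 of the 13 passed, where 1790 of all 13329 tested genes did in either direction. DESeq2 called 4 lower (mt-Co1, mt-Nd4, mt-Nd5 and mt-Nd4l), against 1.36% of all genes, and limma-voom called 0. With the replicate number as a block, a pairing inferred from the data, 1 gene fell, mt-Co1 (log2 −0.64, adjusted p = 0.0441), against 1.97% of all genes called lower. In that blocked fit the count of genes called lower was 12 without TOXdeltaN-positive replicate 1 (6.97% of all genes), 12 without TOXdeltaN-positive replicate 2 (7.03%) and 11 without TOXFL-positive replicate 1 (0.843%). It was 0 without TOXFL-positive replicate 2 (0.123% of all genes), TOXFL-negative replicate 1 (0.166%) or 2 (0.13%), and TOXdeltaN-negative replicate 1 (0.685%) or 2 (0.626%). Without the filter on low counts all 13 were called lower, against 1.89% of all genes. In both TOXFL-positive libraries 13 of 13 genes lay below both TOXFL-negative libraries, which held for 25.5% of all tested genes.

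The size of the TOXFL difference depended on TOXFL-positive replicate 2. Without it the median log2 fold change was −0.19 and the test called 0 of the 13 genes. Without TOXFL-positive replicate 1 the median was −0.98 and 8 genes were called lower (mt-Nd1, mt-Co1, mt-Co2, mt-Atp6, mt-Co3, mt-Nd3, mt-Nd5 and mt-Nd4l), against 0.252% of all genes. The direction of the 13 differences was negative in both cases.

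TOXdeltaN-positive cells had lower values than TOXdeltaN-negative cells for 11 of the 13 genes, with smaller differences. The log2 fold changes lay between −0.38 and 0.26 with a median of −0.20, where the median of all tested genes was 0.005. mt-Atp8 (log2 −0.38, SE 0.178, edgeR adjusted p = 0.423) and mt-Cytb (log2 −0.38, SE 0.17, edgeR adjusted p = 0.408) had the largest negative values. mt-Nd2 stood at 0.05 (SE 0.223) and mt-Nd6 at 0.26 (SE 0.248). The edgeR test called 0 of the 13 genes, against 0.03% of all genes. At an unadjusted p under 0.05 the count was also 0, where 1632 of all 13329 tested genes passed in either direction. DESeq2 and limma-voom called 0 as well. For 10 of 13 genes both TOXdeltaN-positive libraries lay below both TOXdeltaN-negative libraries, against 20.8% of all tested genes. The exceptions were mt-Nd2, mt-Nd4 and mt-Nd6. Without TOXdeltaN-positive replicate 2 all 13 differences were negative, from −0.28 to −0.14 with a median of −0.23, and mt-Nd6 stood at −0.14 and mt-Nd2 at −0.23. Without TOXdeltaN-positive replicate 1, mt-Nd6 stood at 0.57, mt-Nd2 at 0.28 and mt-Nd4 at 0.22.

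**Figure D2:**
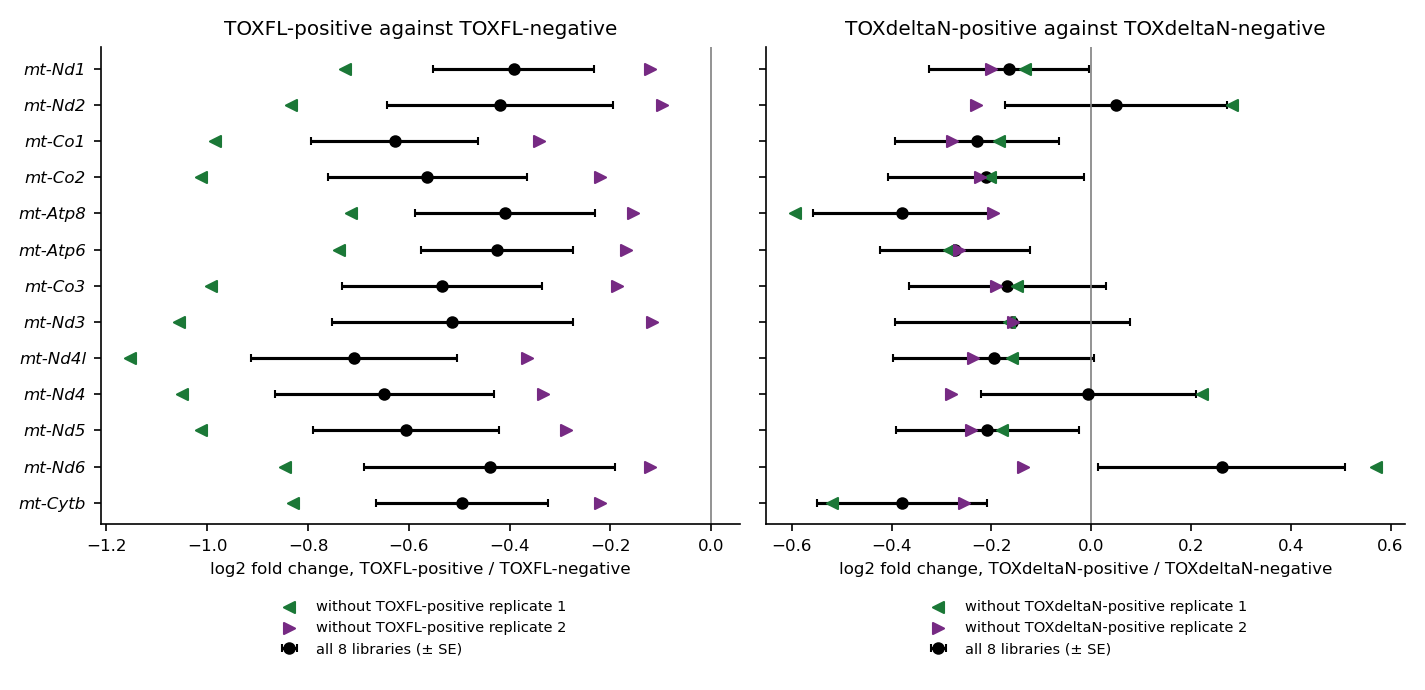
Log2 fold change of each gene (x axis) in genome order (y axis) with TOXFL on the left and TOXdeltaN on the right; black points are fits of all 8 libraries ± SE, and triangles are fits without 1 of the positive libraries. All TOXFL triangles lie below 0, at −0.37 to −0.10 without TOXFL-positive replicate 2 and at −1.15 to −0.72 without replicate 1, while for TOXdeltaN mt-Nd2, mt-Nd4 and mt-Nd6 change sign between the omissions.

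The average of the TOXFL and TOXdeltaN effects sets GFP-positive cells against GFP-negative cells with each construct weighing equally. All 13 averages were negative, from −0.45 for mt-Nd4l to −0.09 for mt-Nd6, with a median of −0.35. The edgeR test called 0 of the 13, against 2.42% of all genes, with adjusted p from 0.0844 for mt-Co1 to 0.805 for mt-Nd6. At an unadjusted p under 0.05, 9 passed, where 2920 of all 13329 tested genes did in either direction. limma-voom called 0 of the 13. DESeq2 called 7 lower (mt-Co1, mt-Co2, mt-Atp8, mt-Atp6, mt-Nd5, mt-Cytb and mt-Nd4l), against 4.28% of all genes. Without the filter on low counts 11 were called lower, against 4.52%.

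With the replicate block, 6 genes fell in the average, where 6.69% of all genes were called lower. These were mt-Cytb (log2 −0.45, adjusted p = 0.0117), mt-Atp8 (log2 −0.41, adjusted p = 0.0226), mt-Co1 (log2 −0.43, adjusted p = 0.0249), mt-Atp6 (log2 −0.36, adjusted p = 0.0251), mt-Nd5 (log2 −0.42, adjusted p = 0.0374) and mt-Nd4l (log2 −0.46, adjusted p = 0.0421) in the blocked edgeR fit. The count of genes called lower in this fit ranged from 0 to 12 when 1 library was left out. It was 12 without TOXFL-positive replicate 1 (2.99% of all genes), 5 without TOXFL-positive replicate 2 (3.98%), 3 without TOXFL-negative replicate 1 (2.68%) and 0 without TOXFL-negative replicate 2 (1.9%). The count was 7 without TOXdeltaN-positive replicate 1 (14.7% of all genes), 11 without TOXdeltaN-positive replicate 2 (7.59%), 1 without TOXdeltaN-negative replicate 1 (1.72%) and 0 without TOXdeltaN-negative replicate 2 (1.16%). In the fit with no block, 9 genes were called lower without TOXFL-positive replicate 1, against 0.778% of all genes, and 2 without TOXdeltaN-positive replicate 1, against 10.4% of all genes. For 8 of 13 genes (mt-Co1, mt-Co2, mt-Co3, mt-Atp6, mt-Atp8, mt-Cytb, mt-Nd4l and mt-Nd5) all 4 GFP-positive libraries lay below all 4 GFP-negative libraries, which held for 8.08% of all tested genes. The 13 genes share libraries, and the 12 on the plus strand share precursor transcripts, so they are not replicates of each other.

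Whether the TOXFL effect differed from the TOXdeltaN effect was tested as the difference of these effects. All 13 differences were negative, from −0.70 for mt-Nd6 to −0.03 for mt-Atp8, with a median of −0.37. In the edgeR test 0 of the 13 genes and 0% of all genes were called, with 0 of the 13 at an unadjusted p under 0.05, and DESeq2 and limma-voom called 0 of the 13. The median of the differences was −0.80 without TOXFL-positive replicate 1 and −0.02 without TOXFL-positive replicate 2.

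Set directly against each other, TOXFL-positive cells had lower values than TOXdeltaN-positive cells for all 13 genes, with log2 fold changes from −0.75 for mt-Nd6 to −0.17 for mt-Atp8 and a median of −0.51. By edgeR 0 of the 13 genes and 0% of all genes were called, and 9 of the 13 had an unadjusted p under 0.05. Of all 13329 tested genes, 768 had such an unadjusted p in either direction. DESeq2 and limma-voom called 0 of the 13. Both TOXFL-positive libraries lay below both TOXdeltaN-positive libraries for 11 of 13 genes, against 16.1% of all genes. Without TOXFL-positive replicate 2 the median was −0.14, and without TOXFL-positive replicate 1 it was −0.94 with 6 genes called lower, against 0.209% of all genes. Without TOXdeltaN-positive replicate 1, 2 were called lower, against 1.41% of all genes.

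TOXFL-negative cells had lower values than TOXdeltaN-negative cells for all 13 genes, with a median log2 fold change of −0.13 and a range from −0.17 to −0.05. The edgeR test called 0 of the 13 genes and 0% of all genes, 0 of the 13 had an unadjusted p under 0.05, and DESeq2 and limma-voom called 0 of the 13. Both TOXFL-negative libraries nevertheless lay below both TOXdeltaN-negative libraries for 11 of 13 genes, against 16.6% of all genes.

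The proportions of the 13 transcripts varied less between libraries than their sum, but this rested on TOXFL-positive replicate 2. Among the other libraries the sum spanned 0.708% to 0.909% of all counts. There the shares of mt-Nd6, mt-Nd2, mt-Atp8 and mt-Nd4 among mitochondrial counts varied relatively more, and those of the other genes less. The share of mt-Nd6 spanned 0.879% to 1.52%. Over all libraries complex IV genes took 53.1% to 56.7% of the mitochondrial counts and complex I genes 18.8% to 21.6%. ATP synthase genes took 14.4% to 17.8% and mt-Cytb 7.33% to 9.7%. TOXFL-positive replicate 2, with the lowest total, kept every gene's share within 0.864 to 1.14 times the median share of the other libraries. Relative to the median of the other 7 libraries, its 13 genes lay between −1.13 and −0.68 on the log2 scale, with a median of −0.95. Its 13 genes thus stood lower by similar amounts, although 10 of its 13 shares lay outside the range of the others, by small margins.

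TOXdeltaN-positive replicate 2 stood apart in a different way. Its share of mt-Nd6 was 1.58 times the median of the other libraries, that of mt-Nd2 1.38 times and that of mt-Nd4 1.33 times. Its shares of mt-Atp8 and mt-Cytb were 0.745 and 0.801 times that median. Between genes of a shared messenger RNA, its CPM ratio of mt-Atp8 to mt-Atp6 was 0.133, where the other 7 libraries lay between 0.157 and 0.173. Its ratio of mt-Nd4l to mt-Nd4 was 0.0917, where the other 7 lay between 0.112 and 0.123. In the remaining 6 libraries every share lay within 0.913 and 1.07 times the median of the others.

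**Figure D3:**
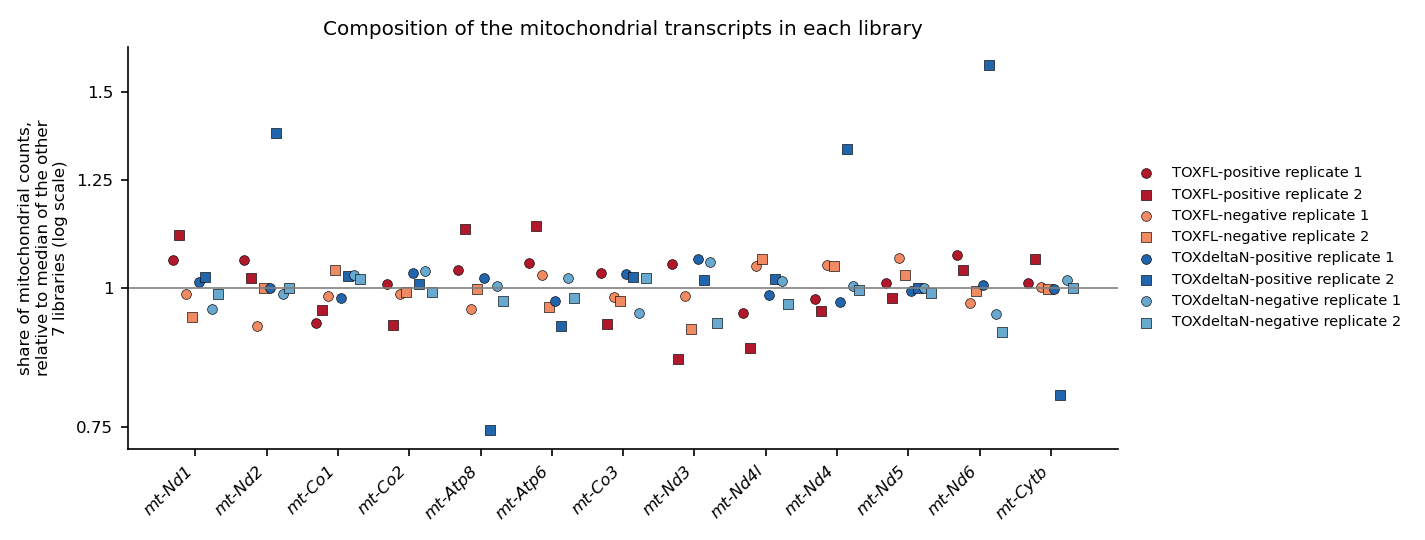
Share of each gene among the mitochondrial counts of a library, relative to the median of the other 7 libraries (log scale); colours are groups, circles replicate 1 and squares replicate 2. TOXdeltaN-positive replicate 2 stands apart at mt-Nd6 (1.58), mt-Nd2 (1.38), mt-Nd4 (1.33) and mt-Atp8 (0.745), while TOXFL-positive replicate 2 stays within 0.864 to 1.14.

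Other features of these libraries differed as well, and their part in the mitochondrial results was not tested. TOXFL-positive replicate 2 had the lowest share of counts in long noncoding RNA genes (0.739%, with 0.876% to 0.966% in the others) and the lowest share in nuclear genes shorter than 1000 bases (1.92%, with 2.00% to 2.64% in the others). TOXdeltaN-positive replicate 2 had the fewest counts in all and the highest share in such short genes (2.64%). It also had the highest share in nuclear-encoded respiratory chain and ATP synthase subunits (1.76%, with 1.32% to 1.49% in the others).

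The nuclear-encoded subunits of the respiratory chain and ATP synthase had mostly positive log2 fold changes, and none passed the main test. Of 88 genes of the respiratory chain and ATP synthase 82 were tested, all lists having been chosen with results of these data known, and the log2 fold change was above 0 for 70 of them with TOXFL (median 0.09), for 79 with TOXdeltaN (median 0.23) and for 78 in the average (median 0.16, where the median of all genes was −0.0005). The edgeR test called 0 of them in these 3 comparisons. Without TOXdeltaN-positive replicate 2 the medians with TOXdeltaN and in the average were 0.09 and 0.09, and without TOXFL-positive replicate 2 the TOXFL median was 0.14. With the replicate block 14 of the 82 rose in the average, against 6.04% of all genes called higher, and 1 rose with TOXdeltaN, against 0.773%. The count in the blocked average was 11 without TOXFL-positive replicate 2, against 3.62% of all genes, and 13 without TOXdeltaN-positive replicate 2, against 6.95%. Among those that rose in the blocked average were 2 genes at low levels, Cox6b2, a testis-type subunit of complex IV (log2 1.57, adjusted p = 0.00293), and Cox7a1, a muscle-type subunit (log2 1.72, adjusted p = 0.0364). Cox6b2 stood at 3.45 and 4.77 CPM in TOXFL-positive against 1.34 and 2.43 CPM in TOXFL-negative libraries. Its values were 4.37 and 6.39 CPM in TOXdeltaN-positive against 0.753 and 2.15 CPM in TOXdeltaN-negative libraries. Cox6b2 was also the gene that rose with TOXdeltaN in the blocked fit (log2 1.97, adjusted p = 0.026). The complex IV subunit Cox7a2 (log2 0.33), the complex III subunits Uqcrq (0.32) and Uqcr10 (0.32) and the complex I subunit Ndufb6 (0.30) rose by less, with blocked adjusted p from 0.0174 to 0.0425. A second row of Atp5o at 0 to 2.29 CPM had the largest negative value of the list (log2 −0.54, SE 0.952).

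Setting the summed CPM of the mitochondrially encoded subunits over that of the nuclear-encoded subunits gave a ratio for each complex. Over complexes I, III, IV and ATP synthase the ratio was 0.519 and 0.337 in TOXFL-positive libraries, against 0.68 and 0.656 in TOXFL-negative libraries. It was 0.551 and 0.484 in TOXdeltaN-positive libraries, against 0.711 and 0.657 in TOXdeltaN-negative libraries. All 4 GFP-positive libraries thus lay below all 4 GFP-negative libraries. The same separation of the ratio was seen in each complex, though in complex I the mitochondrial sum alone did not separate. There TOXdeltaN-positive replicate 2 stood at 1726 CPM, within the 1597 to 1727 CPM of the negative libraries. Its nuclear sum for complex I was 4965 CPM, where the other libraries lay between 3713 and 4188 CPM. For complex IV the ratio was 1.77 and 1.196 in TOXFL-positive against 2.44 and 2.33 in TOXFL-negative libraries, and 1.91 and 1.66 in TOXdeltaN-positive against 2.54 and 2.32 in TOXdeltaN-negative libraries. For complex I the ratio averaged 0.276 ± 0.0829 in TOXFL-positive and 0.427 ± 0.0095 in TOXFL-negative cells, and 0.348 ± 0.00026 in TOXdeltaN-positive and 0.432 ± 0.0215 in TOXdeltaN-negative cells (SD, n = 2 each). The ratio sums genes chosen with results of these data known, so it is given with no test.

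**Figure D4:**
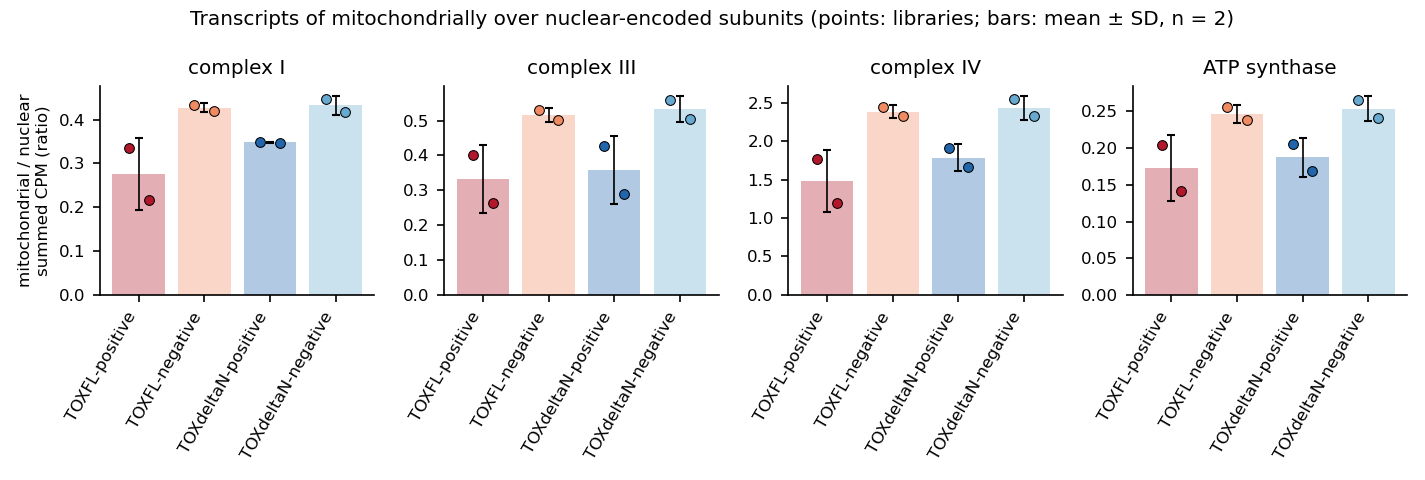
Ratio of summed CPM of mitochondrially encoded to nuclear-encoded subunits (y axis) for 4 complexes, by group; points are libraries and bars means ± SD (n = 2). In each complex all 4 GFP-positive libraries lie below all 4 GFP-negative libraries; for complex IV they lie at 1.196 to 1.91 against 2.32 to 2.54.

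Mitochondrial ribosomal proteins, which translate the 13 messenger RNAs, also had mostly positive values. All 78 were tested, and 71 had a value above 0 with TOXFL (median 0.14), 75 with TOXdeltaN (median 0.18) and 76 in the average (median 0.16). None of them (0) passed the edgeR test in any of the 3. Without TOXdeltaN-positive replicate 2, 59 were above 0 with TOXdeltaN (median 0.07) and 72 in the average (median 0.09). With the replicate block 14 of the 78 rose in the average, where 6.04% of all genes were called higher, and 10 without TOXdeltaN-positive replicate 2, where 6.95% were. Among the 14 were Mrpl28 (log2 0.36, adjusted p = 0.00641), Mrps6 (log2 0.34, adjusted p = 0.0175) and Mrpl12 (log2 0.33, adjusted p = 0.0102). Mrpl13, Mrps22 and Mrps26 rose by log2 0.30 to 0.31 with adjusted p from 0.012 to 0.0316. Mrpl12 has also been described as a partner of the mitochondrial RNA polymerase, and stood at 106.4 and 116.4 CPM in TOXFL-positive against 85.2 and 93.9 CPM in TOXFL-negative libraries. Its values were 108.0 and 137.9 CPM in TOXdeltaN-positive against 86.8 and 106.8 CPM in TOXdeltaN-negative libraries.

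The genes that copy, transcribe and process the mitochondrial genome had values on both sides of 0, and edgeR called 0 of their lists in the TOXFL, TOXdeltaN and average comparisons. Of 13 genes of mitochondrial DNA replication and the nucleoid, 9 had an average above 0 (median 0.07), and the largest values were those of the ligase gene Lig3 (log2 −0.23), the nuclease and helicase gene Dna2 (0.20) and the polymerase gene Polg (−0.17). Of 11 transcription genes 5 had an average above 0 (median −0.01), and 1, Mrpl12, which the ribosomal list also holds, rose in the blocked fit (log2 0.33, adjusted p = 0.0102). Polrmt, the mitochondrial RNA polymerase itself, stood at log2 −0.19 (SE 0.0723, edgeR adjusted p = 0.172), and Tfb1m, an rRNA methyltransferase related to the transcription factor Tfb2m, at 0.20. Of 23 genes that process or modify mitochondrial RNA 9 had an average above 0 (median −0.02), led by Gtpbp3 (0.22), Mrm2 (0.16) and Alkbh1 (−0.14).

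Among 14 genes of mitochondrial RNA stability and decay, 8 had an average above 0 (median 0.02). The largest values were negative, for Lrpprc, a stabiliser of mitochondrial messenger RNAs (log2 −0.20, SE 0.0824, edgeR adjusted p = 0.197), for Mtpap, the mitochondrial poly(A) polymerase (−0.18), and for Fastkd1 (−0.15). Of 8 tested nuclear factors of mitochondrial biogenesis 6 had an average below 0 (median −0.10). The coactivator gene Ppargc1b fell in the blocked fit (log2 −0.36, adjusted p = 0.0383), while its relative Pprc1 (−0.24) and Myc (−0.17) are given as values of the main fit only. Of 11 translation factors 5 had an average above 0 (median −0.04). Tsfm, the gene of elongation factor Ts, rose in the blocked fit (log2 0.35, adjusted p = 0.0102), and Taco1, an activator of mt-Co1 translation, stood at −0.16.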

How the data were processed

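Gene counts were deposited for 8 libraries made from 8 ng of total RNA with SMART-Seq v4 and Nextera XT kits, per the labels' protocols. The authors' table holds RSEM estimated counts per gene in whole numbers, without normalisation. The submitters' processing notes name bcl2fastq 2.20, cutadapt with no version, STAR 2.6.1, RSEM 1.2.28 and GRCm38, and the annotation release is not given in the sources used here. Of its 31907 rows, 92 belong to ERCC spike-ins without a single count and were left out. RSEM divides reads that fit several genes of its reference by estimate. This bears on overlapping genes, and on nuclear copies only if that reference held them.

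Coordinates, sequences and lengths came from GENCODE M21 (GRCm38), and copies were sought with BLASTN 2.17.0 in its transcripts. Counts were fitted in R 4.3.3 with edgeR 4.0.16 (filterByExpr by group, TMM factors from 0.989 to 1.02, group means of all 8 libraries, quasi-likelihood F-test, Benjamini-Hochberg adjustment over 13329 genes, threshold 0.05). CPM values use the TMM factors, and RPKM divides them by transcript length in kilobases. DESeq2 1.42.0 and limma-voom (limma 3.58.1) were alternatives. A gene is said to rise, fall or be called only where its adjusted p passed in the fit named.

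To check whether replicate numbers pair libraries, each library was centred on its group mean and libraries with equal numbers were correlated over 13329 genes. The correlations of the 6 pairs of groups lay between 0.168 and 0.241, all above 0.1, so results of a replicate block fit are given where they changed a call. The pairing is inferred from the data, since no label states what a number stands for. The members and gene lists were chosen with earlier results of these data known. All 13 members are named, and of each list the called genes (at most 6) or else the 3 with the largest log2 fold change.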

Additional observations from a re-analysis of the deposited data

How the results depend on the processing

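Each comparison was refitted with other scalings, filters, tools and sample sets and with each of the 8 libraries left out. Results for single genes, with a few counts of members, were kept where direction and side of the threshold, or the count, stayed the same. Outside the leave-one-out fits 608 were kept and 96 passed the threshold only in the alternative. Leaving out a library kept 803 and reversed 19, and others passed the threshold only there. It also moved 14 counts of members called in the blocked fits. Of the counts of genes called, median fold changes and shares, 94 were kept and 28 moved outside the leave-one-out fits. In the leave-one-out fits 110 were kept and 42 moved. For TOXFL-positive against TOXFL-negative, 6 genes of all tested were called, against 318 with DESeq2 (4 of the 13), 678 without the low-count filter (13) and 2 with only the groups compared. For TOXdeltaN-positive against TOXdeltaN-negative the count was 4, against 120 with DESeq2, 516 without the filter (2 of the 13, mt-Atp8 and mt-Cytb) and 0 with only the groups compared. For the average it was 323, against 1064 with DESeq2 (7) and 1665 without the filter (11). For the difference of effects it was 0, against 7 with DESeq2 and 45 without the filter (2). For TOXFL-positive against TOXdeltaN-positive it was 0, against 15 with DESeq2, 116 without the filter (9) and 1 with only the groups compared. For TOXFL-negative against TOXdeltaN-negative it was 0, against 8 with DESeq2 and 37 without the filter. The cause was not tested.

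With the replicate block, resting on a pairing inferred from the data, 464 genes were called for TOXFL (1 of the 13) and 220 for TOXdeltaN (0). The counts were 1697 for the average (6) and 1 for TOXFL-positive against TOXdeltaN-positive (0). With all 8 libraries the block changed no other count of members called. The blocked fits with a library left out, and the list counts without 2 libraries, were chosen after seeing the data. Those blocked fits are given for TOXFL and the average only. Leaving out a library also changed the blocked counts of members called for TOXdeltaN, the difference of effects and TOXFL-positive against TOXdeltaN-positive. The addition of nuclear copies to the genes was not run, because the copies were not analysed here.

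Leaving out 1 library, which leaves a group with a lone sample assumed to vary like the others, gave counts of all genes of 0 to 122 for TOXFL, 0 to 1571 for TOXdeltaN, 5 to 2504 for the average, 0 to 1 for the difference of effects, 0 to 704 for TOXFL-positive against TOXdeltaN-positive and 0 to 1 for TOXFL-negative against TOXdeltaN-negative. Members called ranged from 0 to 8, 0 to 0, 0 to 9, 0 to 0, 0 to 6 and 0 to 0 in the same order. Their median log2 fold changes ranged from −0.98 to −0.19, −0.24 to −0.16, −0.58 to −0.22, −0.80 to −0.016, −0.94 to −0.14 and −0.15 to −0.10, and the difference in share from −0.383 to −0.126 points for TOXFL and −0.138 to −0.104 for TOXdeltaN. Signs reversed with TOXdeltaN for mt-Nd2 (−0.23 to 0.28), mt-Nd4 (−0.28 to 0.22) and mt-Nd6 (−0.14 to 0.57), and in the average for mt-Nd6 (−0.29 to 0.068) and Atp5o (−4.37 without TOXdeltaN-positive replicate 1 and 1.15 without TOXFL-negative replicate 2). They reversed in the difference of effects for mt-Nd1 (−0.56 to 0.046), mt-Atp8 (−0.33 to 0.23), mt-Atp6 (−0.46 to 0.11), mt-Nd3 (−0.89 to 0.044) and mt-Cytb (−0.45 to 0.16), and in TOXFL-positive against TOXdeltaN-positive for mt-Atp8 (−0.47 to 0.089) and mt-Cytb (−0.59 to 0.021). The values of the mitochondrially encoded genes rest on 507 counts or more per library, but those of Atp5o do not. That row of Atp5o ranged from 0 CPM in TOXdeltaN-positive replicate 2 to 2.29 CPM in TOXFL-negative replicate 2. The spread between libraries is estimated from 2 libraries a group. The TOXFL-negative shares, 0.832% and 0.834%, lie within each other's intervals.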
